A study of Mus musculus with 10 samples.

Results

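A set of 33 genes that mark macrophages, monocytes, neutrophils and dendritic cells was followed in the mouse uterus at gestation day (GD) 3.5. The members were chosen by gene symbol from the 45706 genes listed in the count table, with earlier results of these data known. They comprised 12 macrophage genes, 5 monocyte genes, 2 genes shared by myeloid cells, 6 neutrophil genes and 8 dendritic cell genes. Uteri came from 5 Control mice of genotype *Arid1a* f/f and 5 mice of genotype *Ltf* iCre/+ *Arid1a* f/f, called knockout below. Both groups were mature adult females mated with wildtype males, and both carried the floxed *Arid1a* alleles on a mixed background of C57BL/6 and 129 substrains. In the knockout, Cre recombinase is expressed from the lactoferrin (*Ltf*) locus and deletes *Arid1a*, a subunit of SWI/SNF chromatin remodelers, in the endometrial epithelium. This Cre can also be active in neutrophils and further myeloid cells, and loss of *Arid1a* in myeloid cells themselves cannot be told apart here from its loss in the epithelium. Each library was made from mRNA of a piece of 1 uterus with all of its cell types. In such bulk RNA, fewer cells of a type and less RNA per cell cannot be told apart. The comparison asks how myeloid gene expression in the uterus just before implantation differed between these genotypes.

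Myeloid cells arise in the bone marrow and reach the uterus through the blood. Monocytes enter tissue and can become macrophages or dendritic cells, neutrophils arrive as mature cells loaded with granule proteins made earlier in the marrow, and dendritic cells take up antigen and present it to T cells. In the uterus, macrophages clear dying cells and remodel tissue through the cycle and in early pregnancy, and dendritic cells contribute to the formation of the decidua. Many of the genes that mark these cells are shared between them or with other uterine cells. Some such cases are named where the gene is described, and they are not a complete account. The cell source of abundant members such as *Plac8* and *Maf* was not tested.

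Total counts per uterus ranged from 59296537 to 72702411, and the 10 most abundant genes held between 5.15% and 6.72% of them. Levels are given in CPM, counts scaled by TMM to a common library size, as in edgeR. Differences are given as log2 fold change of knockout minus Control with its standard error (SE), from edgeR's quasi-likelihood test on the 25146 genes that averaged 1 or more counts per library, and p-values were adjusted over all of these genes by the Benjamini-Hochberg method. Nothing in the labels assigns uteri to litters or preparation batches, although the authors compared littermates where they could. *Arid1a* itself stood at 213 ± 22.9 CPM in Control and 185 ± 15.9 CPM in knockout uteri (SD, n = 5 each; log2 fold change -0.20, SE 0.09, adjusted p = 0.201), and the ranges overlapped (192 to 251 and 165 to 208 CPM), so a count over the whole gene in the whole uterus did not by itself separate the genotypes. *Ltf*, the gene that carries the Cre allele, was between 2.22 and 11.7 CPM in Control and between 23.6 and 2830 CPM in knockout uteri. 2 uteri stood apart for the myeloid genes. Knockout 5 had the highest level of the 10 uteri for 16 of the 33 members, and Control 1 had the lowest level for 14. Results for the members are therefore also given without knockout 5, and some also without both.

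Of the 33 members, 32 passed the filter on low counts, and 29 had more than 3 counts in every library. The adjusted p was under 0.05 for 3 of the 32, against 9.70% of all genes tested. *Chil3* was the member called higher, where 5.19% of all genes were called higher. *Fn1* and *Zbtb46* were called lower, where 4.51% of all genes were. The share of members called was thus close to that of all genes. Levels did not overlap between the genotypes for 4 members (*Maf*, *Fn1*, *Zbtb46* and *Spi1*), against 10.7% of all genes. With DESeq2, 29 members had an adjusted p; *Cd68*, *Chil3*, *Spi1* and *Batf3* were called higher (9.88% of all genes) and *Mertk*, *Fn1* and *Zbtb46* were called lower (9.15%). Without knockout 5, edgeR called *Spi1* higher (4.93% of all genes) and *Mertk*, *Fn1* and *Zbtb46* lower (4.22%). With both Control 1 and knockout 5 left out, a choice made after seeing the data, edgeR called 0 members higher (4.17% of all genes). At an unadjusted p under 0.05, 6 members were higher in that fit, against 3201 of 25074 genes. *Mertk*, *Mrc1*, *Folr2*, *Fn1* and *Zbtb46* were called lower (4.10%).

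**Figure D1:**
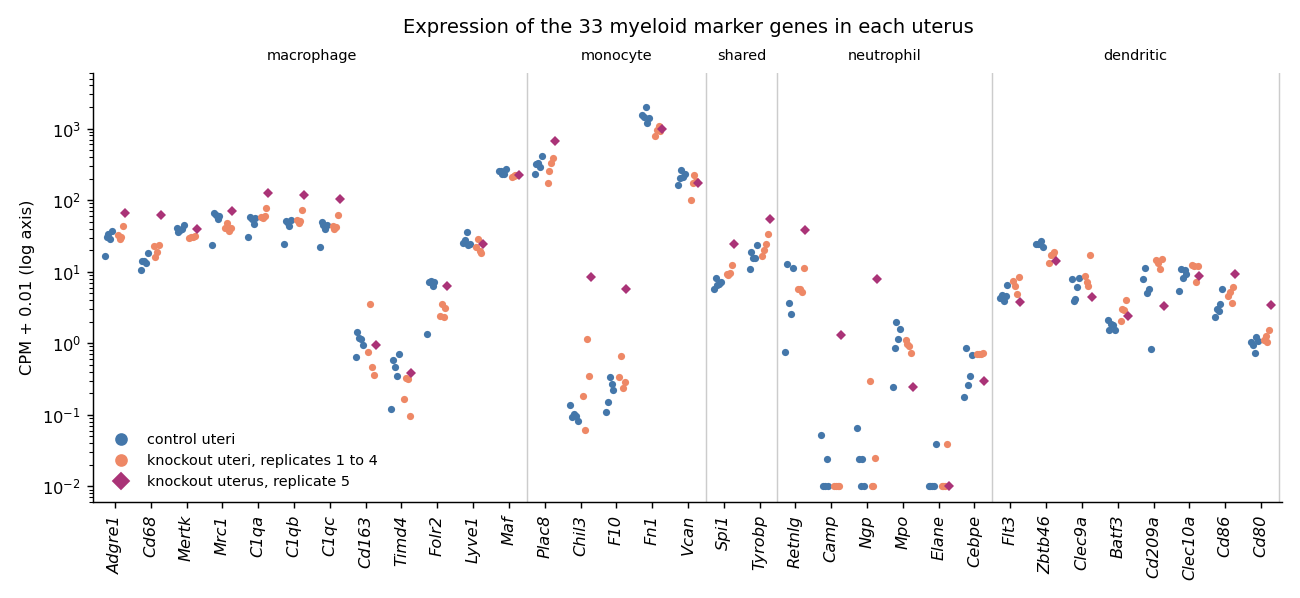
Level of each of the 33 members in each uterus, as CPM plus 0.01 on a log axis, grouped by lineage. Blue points are the 5 Control uteri, orange points knockout uteri 1 to 4 and purple diamonds knockout 5, which was the highest of the 10 uteri for 16 members and stood far above the others for *Chil3*, *F10*, *Camp* and *Ngp*.

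Levels between genes were compared per length, as RPKM (CPM per kilobase of exon) averaged over the Control uteri. *Plac8* was the most abundant member at 198 RPKM, followed by *Fn1* at 131 and *C1qa* at 47.3. *Adgre1* stood at 9.09, *Spi1* at 2.54 and *Flt3* at 0.769. *Chil3* (0.0564), *Camp* (0.0148), *Ngp* (0.0138) and *Elane* (0.00584) had at most 9, 3, 4 and 2 counts in a Control uterus, where 3 counts correspond to 0.0432 CPM. Among the neutrophil genes *Retnlg* (10.4 RPKM) exceeded the next, *Cebpe*, at 0.368 RPKM.

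Macrophage genes moved in both directions. Of the 12, 6 had a positive and 6 a negative log2 fold change, with a median of 0.01 against 0.03 over all genes tested, and 0 passed the edgeR test on all 10 uteri. At an unadjusted p under 0.05, 3 were higher and 2 lower, against 3602 and 2991 of the 25146 genes tested. DESeq2 called *Cd68* higher (9.88% of all genes) and *Mertk* lower (9.15%). The positive ones were *Adgre1*, *Cd68*, *C1qa*, *C1qb*, *C1qc* and *Cd163*, and the negative ones were *Mertk*, *Mrc1*, *Timd4*, *Folr2*, *Lyve1* and *Maf*. Whether the 2 directions belong to different kinds of macrophage was not tested. Without knockout 5 the median was also 0.01, and again 6 were positive and 6 negative.

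*Adgre1*, which encodes the F4/80 antigen, was at 16.8, 30.0, 34.0, 29.0 and 37.4 CPM in Control uteri 1 to 5 and at 32.2, 29.0, 30.6, 43.2 and 65.0 CPM in knockout uteri 1 to 5. Knockouts 4 and 5 were above every Control uterus, and the other 3 lay within the Control range. The difference of 0.44 (SE 0.25, adjusted p = 0.305) did not pass the test, and it was 0.20 without knockout 5 (adjusted p = 0.605). *Cd68*, a lysosomal glycoprotein of macrophages, measured 10.5, 14.0, 14.3, 13.2 and 18 CPM in Control and 22.8, 16.0, 19.1, 23.8 and 61.4 CPM in knockout uteri. All but knockout 2 exceeded the highest Control uterus. Its log2 fold change of 1.03 (SE 0.33) missed the threshold in edgeR (adjusted p = 0.0736) and passed it in DESeq2 (adjusted p = 0.0178), and it was 0.54 without knockout 5 (adjusted p = 0.0647).

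The 3 chains of C1q, the recognition protein of the classical complement pathway, are encoded by neighboring genes on chromosome 4 and had similar profiles over the uteri. *C1qa* stood at 30.3, 58.2, 54.4, 46.1 and 57.0 CPM in Control and at 58.3, 55.5, 59.8, 78.1 and 124 CPM in knockout uteri. *C1qb* ranged from 24.6 (Control 1) to 53.4 CPM and from 48.3 to 117 CPM (knockout 5), and *C1qc* from 22.2 (Control 1) to 49.0 CPM and from 39.6 to 105 CPM (knockout 5). For all 3 chains Control 1 was the lowest uterus and knockout 5 the highest. The log2 fold changes were 0.61, 0.64 and 0.54 (SE 0.24, 0.27 and 0.29), with adjusted p from 0.134 to 0.265, and without knockout 5 they were 0.36, 0.36 and 0.22.

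Because these genes lie side by side and moved together, the 250 bases before the RefSeq transcription start are shown for *C1qb* (chr4:136886201-136886450, minus strand) and *C1qc* (chr4:136892915-136893164, minus strand), from RefSeq on GRCm38.p6. Capitals mark GAGGAA or its reverse complement TTCCTC, a core that the myeloid factor PU.1, encoded by *Spi1*, can bind.
C1qb: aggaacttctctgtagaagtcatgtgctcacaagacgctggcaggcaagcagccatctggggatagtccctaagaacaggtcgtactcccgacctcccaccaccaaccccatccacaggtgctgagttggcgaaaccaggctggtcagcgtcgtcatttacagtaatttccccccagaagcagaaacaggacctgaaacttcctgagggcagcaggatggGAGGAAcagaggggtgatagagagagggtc
C1qc: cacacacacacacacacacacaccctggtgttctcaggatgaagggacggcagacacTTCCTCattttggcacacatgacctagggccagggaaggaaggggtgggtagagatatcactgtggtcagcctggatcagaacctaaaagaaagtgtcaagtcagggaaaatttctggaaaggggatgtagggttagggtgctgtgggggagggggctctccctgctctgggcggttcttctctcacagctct
The base of the match nearest the start lies 25 bases before it in *C1qb* and 188 in *C1qc*. Promoter entries were found for 23 members (25 promoters), and GAGGAA on either strand was present in 8 of the 25 (*Batf3*, *C1qb*, *C1qc*, *Cd68*, *Elane*, *Mpo*, *Mrc1* and *Plac8*), against 23.3% of all 32851 promoter windows of this length. A match of these letters is a description of the sequence and not a binding site.

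*Mertk* (ENSMUSG00000014361, GRCm38 chr2:128698956-128802894), the receptor with which macrophages engulf dying cells, was at 41.1, 36.0, 38.2, 39.6 and 44.7 CPM in Control and at 29.4, 30.9, 30.7, 31.4 and 39.5 CPM in knockout uteri. Knockouts 1 to 4 lay below every Control uterus, and knockout 5 lay within the Control range. The log2 fold change was -0.30 (SE 0.10, adjusted p = 0.0778; DESeq2, adjusted p = 0.0385), and without knockout 5 it was -0.38 (SE 0.08) and passed the test (adjusted p = 0.0184).

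The mannose receptor gene *Mrc1* measured 23.7, 66.2, 61.4, 54.0 and 59.7 CPM in Control and 41.1, 47.5, 36.7, 41.2 and 71.5 CPM in knockout uteri. *Folr2*, the folate receptor of resident macrophages, measured 1.34, 7.09, 7.51, 6.26 and 7.11 CPM in Control and 2.41, 3.53, 2.29, 3.09 and 6.38 CPM in knockout uteri. In both genes Control 1 was the lowest of the 10 uteri and knockout 5 the highest knockout, and apart from these 2 uteri the groups did not overlap. With all 10 uteri the log2 fold changes were -0.15 for *Mrc1* (SE 0.26, adjusted p = 0.764) and -0.73 for *Folr2* (SE 0.43, adjusted p = 0.315). Without knockout 5 they were -0.35 (adjusted p = 0.407) and -1.05 (adjusted p = 0.134). With Control 1 and knockout 5 both left out they were -0.54 (adjusted p = 0.0135) and -1.30 (adjusted p = 0.00369), a comparison that rests on the removal of the 2 uteri that overlapped.

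Within each uterus, *Mrc1* was also set against *Adgre1*, a ratio that does not depend on library scaling and was chosen after the values were seen, so it is given without a test. The ratio was 1.41, 2.20, 1.80, 1.86 and 1.60 in Control and 1.27, 1.64, 1.20, 0.954 and 1.10 in knockout uteri. Knockout 2 was the knockout that overlapped the Control range. *Folr2* relative to *Adgre1* was 0.0801, 0.236, 0.221, 0.216 and 0.190 in Control and 0.0749, 0.122, 0.0749, 0.0716 and 0.0982 in knockout uteri, where the low Control 1 overlapped the knockouts. For *C1qa* the ratio ranged from 1.52 to 1.94 and from 1.81 to 1.96, and for *Cd68* from 0.420 to 0.627 and from 0.551 to 0.945, so both overlapped. In knockout 5, whose levels of most macrophage genes were the highest, the *Mrc1* and *Folr2* ratios lay among those of the other knockouts.

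**Figure D2:**
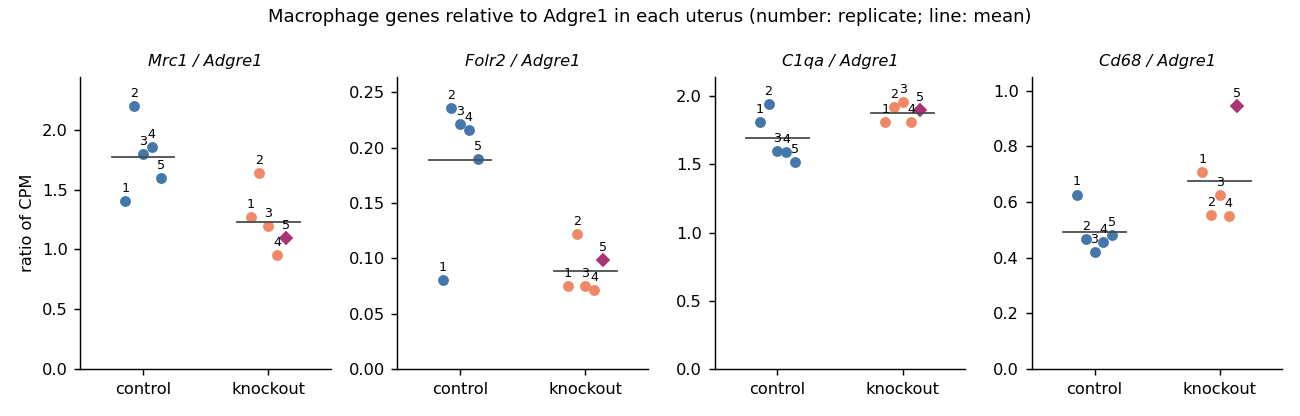
Ratio of the CPM of *Mrc1*, *Folr2*, *C1qa* and *Cd68* to that of *Adgre1* in each uterus, with linear axes from 0, the replicate number beside each point and the group mean as a line. *Mrc1*/*Adgre1* was 1.41 to 2.20 in Control and 0.954 to 1.64 in knockout uteri, and Control 1 (0.0801) was the Control uterus with a low *Folr2*/*Adgre1* ratio.

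The remaining macrophage members did not pass the test. *Timd4*, which encodes a phosphatidylserine receptor, was scarce, at 0.436 ± 0.226 CPM in Control and 0.250 ± 0.122 CPM in knockout uteri (log2 fold change -0.80, adjusted p = 0.351, and 0.273 without knockout 5). *Lyve1*, a hyaluronan receptor, stood at 27.0 ± 4.97 and 22.5 ± 3.95 CPM (log2 fold change -0.26, adjusted p = 0.30; -0.29 without knockout 5). *Lyve1* is also a gene of lymphatic endothelium, whose transcription factor gene *Prox1* measured 8.60 ± 0.467 and 9.32 ± 1.83 CPM (log2 fold change 0.12, adjusted p = 0.691). Of the 5 lymphatic genes 3 had negative differences, the lowest -0.38, and *Pdpn*, which other cells also express, was called higher (0.67, adjusted p = 0.0409; not called without knockout 5). Their part in the *Lyve1* difference was not tested. The transcription factor gene *Maf* was between 230 and 272 CPM in Control and between 209 and 227 CPM in knockout uteri, with no overlap between the groups (exact permutation p = 0.00794, two-sided, the smallest that 5 uteri against 5 allow). Its difference was small (log2 fold change -0.17, SE 0.07, adjusted p = 0.161; -0.18 without knockout 5), and its exons overlap an antisense gene, as do those of *Folr2*, *Fn1* and *Mpo*. *Cd163*, the scavenger receptor for hemoglobin, was highest in knockout 2 at 3.52 CPM and between 0.349 and 0.926 CPM in the other knockouts (Control 0.629 to 1.41 CPM), with a log2 fold change of 0.18 (0.26 without knockout 5).

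The 5 monocyte genes did not move as a group. Their median log2 fold change was 0.20 with all uteri and -0.14 without knockout 5, against 0.03 and 0.02 over all genes tested. *Fn1* and *Vcan* are also stromal genes, and the cell source of *Plac8* was not tested. *Chil3* and *F10* had at most 9 and 21 counts in a Control uterus. The median is thus not a measure of monocytes. *Chil3* was called higher (5.19% of all genes) and *Fn1* lower (4.51%).

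*Chil3* (ENSMUSG00000040809, GRCm38 chr3:106147554-106167564), which encodes the chitinase-like protein Ym1 of monocytes, neutrophils and activated macrophages, was near the limit of detection in Control uteri, at 0.126, 0.0836, 0.0940, 0.0852 and 0.0718 CPM (5 to 9 counts). Knockout uteri held 0.172, 0.0507, 1.13, 0.334 and 8.48 CPM (11, 3, 69, 23 and 586 counts). All but knockout 2 were above every Control uterus, and knockouts 3 and 5 carried most of the difference. The log2 fold change was 4.44 (SE 1.21, adjusted p = 0.0409; DESeq2, adjusted p = 0.00126). It was 2.17 without knockout 5 (SE 0.70, adjusted p = 0.0784) and between 4.36 and 4.58 when any Control uterus was left out, with adjusted p from 0.0758 to 0.0973, so the edgeR call was lost without any one Control uterus and without knockout 5.

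*F10*, coagulation factor X, measured 0.0979 to 0.329 CPM in Control uteri, 0.229 to 0.659 CPM in knockouts 1 to 4 and 5.76 CPM in knockout 5 (log2 fold change 2.80, SE 0.92, adjusted p = 0.0787; 0.84 without knockout 5, adjusted p = 0.257). *Plac8*, a small cysteine-rich protein, was abundant and varied from 232 to 413 CPM in Control and from 172 to 666 CPM in knockout uteri. Its log2 fold change of 0.20 (SE 0.30, adjusted p = 0.737) became -0.14 without knockout 5.

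*Fn1* (ENSMUSG00000026193, GRCm38 chr1:71585520-71653200), the matrix glycoprotein fibronectin, fell in every knockout. It measured 1550, 1460, 2020, 1210 and 1420 CPM in Control and 791, 954, 1080, 920 and 976 CPM in knockout uteri, with no overlap. The log2 fold change was -0.70 (SE 0.14, adjusted p = 0.0132), and -0.71 without knockout 5 (adjusted p = 0.0180). *Vcan*, the proteoglycan versican, stood at 214 ± 36.9 and 170 ± 43.5 CPM (log2 fold change -0.33, SE 0.19, adjusted p = 0.294; -0.34 without knockout 5). Fibronectin and versican are also products of stromal cells. The stromal receptor gene *Pdgfra* measured 534 to 725 CPM in Control and 180 to 504 CPM in knockout uteri (log2 fold change -0.70, SE 0.23, adjusted p = 0.0735), 5 of 6 stroma genes had a negative log2 fold change and 1 of them passed the test (2 without knockout 5). The summed stroma genes ranged from 10400 to 15700 and from 8950 to 14800 CPM, and their part in the *Fn1* difference was not tested.

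The genes shared by myeloid cells had positive differences. *Spi1* (ENSMUSG00000002111, GRCm38 chr2:91082390-91115756), which encodes the transcription factor PU.1, was at 5.65, 8.08, 6.44, 6.75 and 7.25 CPM in Control and at 9.27, 9.01, 9.55, 12.4 and 24.7 CPM in knockout uteri. Every knockout exceeded every Control uterus (exact permutation p = 0.00794, two-sided, the smallest possible). The log2 fold change of 0.93 (SE 0.27) was just outside the threshold with all uteri (adjusted p = 0.0556; DESeq2, adjusted p = 0.010) and was 0.56 (SE 0.15, adjusted p = 0.0458) without knockout 5. Without knockout 5 the difference and the spread between knockouts were both smaller (13 ± 6.69 CPM with it and 10.1 ± 1.57 CPM without it). With Control 1 left out as well, the log2 fold change was 0.50 (SE 0.16) and was not called (adjusted p = 0.0813).

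*Tyrobp*, the signaling adaptor DAP12 of myeloid and natural killer (NK) cell receptors, measured 10.8, 18.8, 15.7, 15.7 and 23.5 CPM in Control and 16.6, 20.2, 24.4, 34.1 and 53.6 CPM in knockout uteri. Knockouts 3, 4 and 5 were above all Control uteri, and the groups overlapped. Its log2 fold change was 0.82 (SE 0.31, adjusted p = 0.116) with all uteri and 0.50 without knockout 5 (adjusted p = 0.222). In the list of 8 NK cell genes 2 had a positive and 6 a negative log2 fold change, with a median of -0.20.

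Neutrophil genes gave the widest range, and it rested on knockout 5. Of the 6 genes 5 passed the filter, 4 had a positive log2 fold change and the median was 1.12. *Camp* passed the filter through the 89 counts of knockout 5. The median was also 1.12 with *Camp* at its bound, a replacement that could not move it, and was 0.77 with no filter on low counts. Without knockout 5 the 4 genes that then passed the filter had a median of 0.40, and with Control 1 left out as well it was 0.15. In edgeR 0 neutrophil members passed the test in these fits. At an unadjusted p under 0.05, 2 were higher with all uteri, against 3602 of the 25146 genes tested. Without knockout 5, 0 were higher at that level, against 3389 of 25047 genes. DESeq2 called 0 of *Retnlg*, *Mpo* and *Cebpe* and gave no adjusted p for *Camp* and *Ngp*.

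*Retnlg*, a resistin-like protein of neutrophils, measured 0.741, 12.7, 3.62, 2.51 and 11.3 CPM in Control and 5.66, 5.80, 5.26, 11.3 and 38.8 CPM in knockout uteri. It varied widely between Control uteri, and knockouts 1 to 4 lay within their range. Its log2 fold change was 1.12 (SE 0.77, adjusted p = 0.400), 0.19 without knockout 5 (adjusted p = 0.891) and -0.10 without both knockout 5 and Control 1.

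*Camp*, the precursor of the cathelicidin antimicrobial peptide, and *Ngp*, neutrophilic granule protein, are granule genes. *Camp* had 3, 0, 0, 1 and 0 counts in Control and 0, 0, 0, 0 and 89 counts in knockout uteri, the last of which equals 1.29 CPM. *Ngp* had 4, 1, 0, 1 and 0 counts in Control and 18, 0, 0, 1 and 538 counts in knockout uteri. Both genes were thus high in knockout 5, *Ngp* was above the Control uteri in knockout 1 as well, and the fitted fold changes of such genes are not given. *Elane*, neutrophil elastase, had at most 2 counts in any uterus and was not tested. A difference in *Elane* was not detectable at this depth.

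*Camp* and *Ngp* lie on chromosome 9, 1.17 and 0.596 Mb from *Ltf*, and both were high in knockout 5. Their 250 bases before the RefSeq start are shown for this reason, *Camp* from chr9:109849457-109849706 on the minus strand and *Ngp* from chr9:110419558-110419807 on the plus strand of GRCm38.p6. Capitals mark TTGCNNAA or its reverse complement, a form of the element of C/EBP factors, the family to which *Cebpe* belongs.
Camp: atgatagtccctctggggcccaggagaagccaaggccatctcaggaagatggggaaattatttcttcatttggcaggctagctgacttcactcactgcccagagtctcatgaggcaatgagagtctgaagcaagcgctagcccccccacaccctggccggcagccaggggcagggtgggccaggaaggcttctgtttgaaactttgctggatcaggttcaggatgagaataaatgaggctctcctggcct
Ngp: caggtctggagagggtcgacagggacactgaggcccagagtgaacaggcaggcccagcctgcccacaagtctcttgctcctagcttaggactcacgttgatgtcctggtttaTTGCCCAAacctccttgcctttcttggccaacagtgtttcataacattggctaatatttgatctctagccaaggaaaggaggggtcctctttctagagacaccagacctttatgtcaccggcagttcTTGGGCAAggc
*Ngp* held 2 matches that did not overlap, and *Camp* held none, which says no more than that these letters are not in the window. Of the 25 member promoters 4 held the motif (*Cd68*, *Ngp*, *Plac8* and *Retnlg*), against 9.56% of all windows.

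Unlike *Camp* and *Ngp*, the genes *Mpo* and *Cebpe* were lower in knockout 5 than in the other knockouts. *Mpo*, myeloperoxidase, was at 0.238, 0.850, 1.94, 1.14 and 1.59 CPM in Control and at 1.11, 0.963, 0.916, 0.712 and 0.231 CPM in knockout uteri. Knockout 5 was the lowest of all 10, at 16 counts against 17 in Control 1. *Cebpe*, the transcription factor of granule genes, measured 0.168, 0.850, 0.251, 0.341 and 0.675 CPM in Control and 0.690, 0.693, 0.687, 0.726 and 0.289 CPM in knockout uteri. Knockout 5 was again the lowest knockout, but it was above Controls 1 and 3. Neither gene passed the test (log2 fold change -0.55 and 0.43, adjusted p = 0.555 and 0.60; -0.31 and 0.61 without knockout 5). *Prtn3*, proteinase 3, another neutrophil granule gene, chosen after its values were seen, was instead highest in knockout 5, at 2.05 CPM against 0.573 to 1.13 CPM in Control uteri. *Ccr3*, 1 of the 9 eosinophil and mast cell genes and also chosen after its values were seen, was low in 2 uteri. It stood at 0.112 CPM in Control 1, at 0.347 CPM in knockout 5 and between 1.93 and 5.18 CPM in the other uteri. The cell source of *Mpo* and *Cebpe* was not tested.

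Among 12 other neutrophil genes, 4 were called higher with all uteri (*Ltf*, *Lcn2*, *Ly6g* and *Mmp8*), and the median log2 fold change was 4.03. Without knockout 5 the median was -0.38, with 3 called higher and 1 lower. *Ly6g*, the surface antigen of mouse neutrophils, measured 0.0574 to 0.196 CPM in Control and 1.71, 0.372, 0.163, 0.247 and 5.32 CPM in knockout uteri. *Mmp8*, the neutrophil collagenase, was between 0.0139 and 0.0852 CPM in Control uteri, 0.11 to 0.247 CPM in knockouts 1 to 4 and 17.2 CPM in knockout 5. *S100a8* and *S100a9*, chosen after their values were seen, stood at 290 and 383 CPM in knockout 5 and at no more than 1.26 and 2.12 CPM in the other 9 uteri.

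*Ltf* and *Lcn2* were high in knockouts 1 and 4 as well. Both are neutrophil granule proteins that uterine epithelium also secretes. *Lcn2* measured 635, 4.61, 2.35, 32.8 and 1660 CPM in knockout uteri and 0.838 to 1.71 CPM in Control uteri (log2 fold change 8.60, SE 1.79, adjusted p = 0.0139; 7.13 without knockout 5, adjusted p = 0.0163). *Ltf* measured 383, 23.6, 39.8, 290 and 2830 CPM in knockout uteri (log2 fold change 7.23, SE 1.36, adjusted p = 0.00920; 5.27 without knockout 5, adjusted p = 0.00546). Knockout 1 was also above every Control uterus for *Ly6g* and *Ngp*, while it had 0 counts of *Camp*. In knockout 4 *Ngp* had 1 count and *Ly6g* stood at 0.247 CPM. For *Ly6g* every knockout but knockout 3 was above every Control uterus. *S100a8* stood at 0.455 and 0.726 CPM in knockouts 1 and 4.

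**Figure D3:**
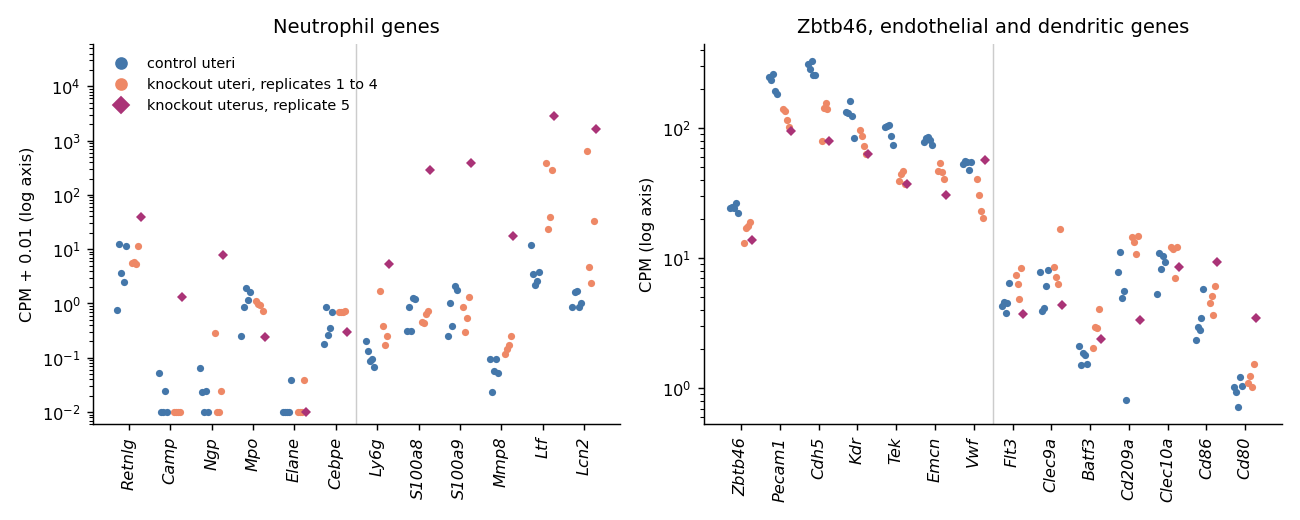
Left, CPM plus 0.01 on a log axis of the 6 neutrophil members and, right of the grey line, 6 other neutrophil genes in each uterus; right, CPM on a log axis of *Zbtb46* with the 6 blood endothelial genes and, right of the grey line, the other 7 dendritic cell members. Knockout 5 (purple) stood at 290 CPM for *S100a8* where the other 9 uteri were at or under 1.26 CPM, and *Zbtb46* and 4 of the 6 endothelial genes were lower in every knockout than in every Control uterus, with *Kdr* and *Vwf* as the exceptions.

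Most dendritic cell genes had positive differences, and 1 fell. Of the 8, 7 had a positive log2 fold change, against 13252 of 25146 genes tested, and the median was 0.61 against 0.03. *Zbtb46* was the member called, lower, where 4.51% of all genes were. At an unadjusted p under 0.05, 2 were higher and 1 lower, against 3602 and 2991 of 25146. DESeq2 called *Batf3* higher (9.88% of all genes) and *Zbtb46* lower (9.15%). Without knockout 5 the median was 0.50, 7 were positive and *Zbtb46* was called lower (4.22% of all genes). At an unadjusted p under 0.05, 3 were then higher and 1 lower, against 3389 and 3018 of 25047. Knockout 5 was the lowest knockout for *Flt3*, *Clec9a* and *Cd209a*.

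*Flt3*, the receptor for the growth factor that maintains dendritic cells, measured 4.28, 4.64, 3.82, 4.53 and 6.46 CPM in Control and 7.40, 6.30, 4.84, 8.45 and 3.70 CPM in knockout uteri. Knockouts 1 and 4 exceeded all Control uteri, while knockout 5 was below all of them. The log2 fold change was 0.37 (SE 0.24, adjusted p = 0.359), and 0.51 without knockout 5 (adjusted p = 0.153). *Clec9a*, the receptor with which type 1 conventional dendritic cells sense dead cells, was at 7.90, 3.94, 4.15, 6.09 and 8.10 CPM in Control and at 8.58, 7.20, 6.36, 16.9 and 4.37 CPM in knockout uteri. Knockout 4 had the highest level (log2 fold change 0.52, SE 0.35, adjusted p = 0.384; 0.69 without knockout 5, adjusted p = 0.204). Exons of *Clec9a* overlap those of *Clec1b* on the same strand, which stood at 1.21 ± 1.33 and 0.361 ± 0.244 CPM.

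*Batf3*, a transcription factor needed for type 1 conventional dendritic cells, measured 2.13, 1.52, 1.86, 1.80 and 1.54 CPM in Control and 2.05, 2.97, 2.93, 4.04 and 2.39 CPM in knockout uteri. Knockouts 2 to 5 exceeded every Control uterus. The log2 fold change of 0.70 (SE 0.21) missed the threshold in edgeR (adjusted p = 0.0626) and passed it in DESeq2 (adjusted p = 0.00704), and it was 0.76 without knockout 5 (adjusted p = 0.0579). *Cd209a*, a C-type lectin of monocyte-derived and type 2 conventional dendritic cells, was at 7.87, 11.1, 4.98, 5.64 and 0.818 CPM in Control and at 14.5, 13.3, 10.8, 14.8 and 3.34 CPM in knockout uteri. Control 5 and knockout 5 were the lowest of their groups. The difference of 0.90 (SE 0.55, adjusted p = 0.339) was 1.13 without knockout 5 (adjusted p = 0.183).

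*Zbtb46* (ENSMUSG00000027583, GRCm38 chr2:181387762-181459426), a transcription factor of conventional dendritic cells, fell. It measured 24.3, 24.7, 24.3, 26.7 and 22.1 CPM in Control and 13.2, 17.0, 17.6, 19.1 and 13.9 CPM in knockout uteri, with no overlap (log2 fold change -0.60, SE 0.12, adjusted p = 0.0109; -0.55 without knockout 5, adjusted p = 0.0170). Its direction was opposite to that of the other 7 dendritic members. Endothelial cells also express *Zbtb46*, and all 6 blood endothelial genes had negative differences, 5 of them called, with a median of -0.91 (6 called without knockout 5, median -0.88). Their summed level ranged from 723 to 990 CPM in Control and from 362 to 494 CPM in knockout uteri. The part of endothelium in the *Zbtb46* difference was not tested.

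*Clec10a*, a galactose-binding lectin of dendritic cells and macrophages, stood at 8.84 ± 2.23 and 10.4 ± 2.39 CPM (log2 fold change 0.23, adjusted p = 0.564; 0.29 without knockout 5). *Cd86* and *Cd80* encode ligands that costimulate T cells through CD28. *Cd86* measured 3.48 ± 1.34 and 5.77 ± 2.21 CPM (log2 fold change 0.73, SE 0.30, adjusted p = 0.149), and *Cd80* measured 0.992 ± 0.183 and 1.67 ± 1.02 CPM (log2 fold change 0.75, SE 0.34, adjusted p = 0.191). For both the highest uterus was knockout 5, at 9.39 and 3.46 CPM, and without it the differences were 0.48 and 0.31.

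**Figure D4:**
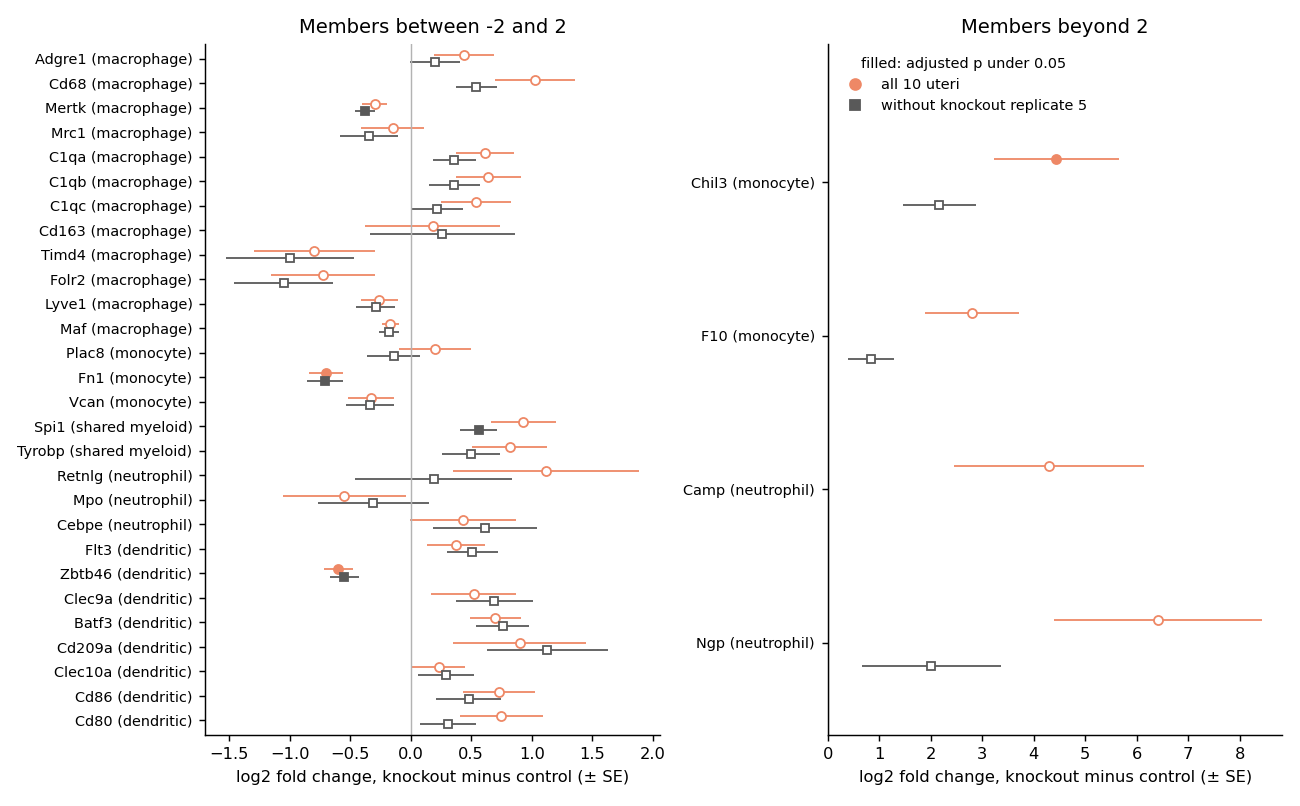
Log2 fold change of knockout minus Control with its SE for the members tested, on linear axes, from all 10 uteri (orange circles) and without knockout 5 (grey squares), with filled symbols where the adjusted p was under 0.05; *Camp* did not pass the filter without knockout 5, and the fitted values of *Camp* and *Ngp* depend on the prior count. Filled symbols mark *Chil3* (4.44), *Fn1* (-0.70) and *Zbtb46* (-0.60) with all uteri and *Mertk* (-0.38), *Fn1*, *Spi1* (0.56) and *Zbtb46* without knockout 5, and the differences of *Ngp*, *Camp* and *F10* rest on knockout 5.

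Single genes of the lineages were compared with each other within uteri. A ratio of single genes does not test a lineage as a whole, and *Chil3* was near the limit of detection in Control uteri. The cell source of *Retnlg* was not tested, so its ratios are not a measure of neutrophils. *Adgre1* for macrophages, *Chil3* for monocytes, *Retnlg* for neutrophils and *Flt3* for dendritic cells were set against each other and against *Ptprc*, the CD45 gene of all leukocytes, as log2 ratios of CPM, which gave 10 pairs. None passed the two-sided exact permutation test after adjustment over the 10 pairs, where a single pair with the smallest p that 5 uteri against 5 allow would reach an adjusted p of 0.0794 and so could not pass alone. The lowest unadjusted value was that of *Chil3* to *Ptprc* (difference of 1.87, exact permutation p = 0.0952, adjusted p = 0.587). *Chil3* to *Flt3* differed by 2.05 (exact permutation p = 0.238) and *Adgre1* to *Chil3* by -1.96 (exact permutation p = 0.127), in both cases with 4 of 5 knockouts on the same side of the Control mean. *Adgre1* to *Retnlg* differed by -0.83 (exact permutation p = 0.262), with all 5 knockouts below the Control mean.

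The log2 ratio of *Adgre1* to *Ptprc* stood at -1.32 ± 0.32 in Control and -1.41 ± 0.29 in knockout uteri, a difference of -0.09 (exact permutation p = 0.690). *Flt3* to *Ptprc* was -3.93 ± 0.14 and -4.10 ± 0.86, and the wide spread of the knockouts came with knockout 5 at -5.39. Without knockout 5 the adjusted p of the 10 pairs lay between 0.734 and 0.802. As medians of log2 fold change the lineages stood at 0.01 (macrophage), 0.20 (monocyte), 0.87 (shared), 1.12 (neutrophil; 0.77 with no filter on low counts) and 0.61 (dendritic) with all uteri, and at 0.01, -0.14, 0.53, 0.40 and 0.50 without knockout 5.

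Other genes of the same lineages, not among the members, gave these counts. Of 14 other macrophage genes all had a positive log2 fold change, with a median of 0.78, and *Ctss*, the lysosomal protease cathepsin S, was called higher. *Ctss* measured 47.6, 70.0, 68.9, 65.0 and 84.7 CPM in Control and 107, 99.9, 111, 188 and 323 CPM in knockout uteri, with no overlap (log2 fold change 1.30, SE 0.31, adjusted p = 0.0254; 0.91 without knockout 5, adjusted p = 0.0196). Without knockout 5, 11 of the 14 were positive, with a median of 0.41.

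Of 10 other monocyte genes 8 had a positive log2 fold change (median 0.52), and 5 without knockout 5 (median -0.06). *Hp*, haptoglobin, was called higher, at 2.87 to 4.52 CPM in Control and at 6.44, 18.4, 20.6, 17.4 and 33.8 CPM in knockout uteri (log2 fold change 2.34, SE 0.35, adjusted p = 0.00293; 2.04 without knockout 5, adjusted p = 0.00268). Haptoglobin is also secreted by epithelial cells.

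Of 14 other dendritic cell genes tested 10 were positive, with a median of 0.55 (0.33 without knockout 5), and 4 were called higher and 1 lower. *Ccl17* and *Ccl22*, chemokines that attract T cells and that dendritic cells and macrophages secrete, were among those called higher. *Ccl17* was near the limit of detection in Control uteri, at 0.0279 to 0.142 CPM (2 to 10 counts). It measured 0.235, 0.845, 0.899, 1.06 and 3.78 CPM in knockout uteri (log2 fold change 4.20, SE 0.74, adjusted p = 0.00680). *Ccl22* measured 0.251 to 1.13 and 0.965 to 8.45 CPM (log2 fold change 2.10, SE 0.59, adjusted p = 0.0455). *Wdfy4*, needed for cross-presentation by type 1 conventional dendritic cells, rose from 14.2 ± 2.08 to 21.8 ± 4.85 CPM (adjusted p = 0.0345). *Cd24a*, which encodes a surface glycoprotein that epithelium also carries, was the fourth gene called higher (log2 fold change 1.46, adjusted p = 0.0495; 1.36 without knockout 5, adjusted p = 0.0776). *Ly75*, the endocytic receptor DEC-205, fell from 38.5 ± 11.3 to 19.8 ± 4.40 CPM (log2 fold change -0.96, adjusted p = 0.0164). Without knockout 5, *Ccl17* (adjusted p = 0.00506) and *Ly75* (adjusted p = 0.0286) passed the test, and *Ccl22* (adjusted p = 0.0772) and *Wdfy4* (adjusted p = 0.0588) did not.

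Genes of other cells were measured beside these. All 6 pan-leukocyte genes had positive differences (median 0.79) and 4 were called with all uteri, but edgeR called 0 without knockout 5 and 0 without Control 1, where 4 had an unadjusted p under 0.05 in each case. All 6 were positive in both, with medians of 0.61 and 0.70. *Ptprc* itself stood at 72.3 ± 15.2 and 107 ± 38.6 CPM (log2 fold change 0.56, SE 0.23, adjusted p = 0.149; 0.39 without knockout 5). The medians were 0.76 for T cell genes (3 of 8 called higher), 0.82 for epithelium (5 of 7 called higher, 1 lower), -0.29 for stroma (1 of 6 called lower) and -0.06 for lymphatic endothelium (1 of 5 called higher). They were 0.36 for B cells, 0.07 for eosinophils and mast cells, 0.09 for erythroid cells, -0.20 for NK cells and -0.48 for smooth muscle. In these 5 lists edgeR called 0 genes, with an unadjusted p under 0.05 for 1 B cell gene and 1 smooth muscle gene, and DESeq2 called 1 B cell gene higher and 1 smooth muscle gene lower. The medians without knockout 5 were 0.57 for T cells (3 called higher), 0.85 for epithelium (4 called higher, 1 lower), -0.38 for stroma, -0.15 for lymphatic endothelium (0 called; 3 at an unadjusted p under 0.05), -0.27 for B cells and -0.12 for eosinophils and mast cells, where *Kit*, the stem cell factor receptor of mast cells and other cells, was called lower (-0.72, adjusted p = 0.0173). The part of other cell types in the myeloid differences was not tested.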

How the data were processed

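The authors sequenced KAPA mRNA libraries (50 bp, paired end) of 10 uteri at GD 3.5, 5 Control and 5 knockout. The authors trimmed reads with cutadapt 1.18 and Trim Galore 0.6.4, aligned them to GRCm38 with STAR 2.7.3a and deposited the raw gene counts of its GeneCounts mode, without normalization. Annotation release and strand setting are not given in the sources used here, so reads of overlapping antisense genes cannot be told apart. Totals were 59296537 to 72702411 counts, and pairs of the same genotype were not duplicates (lowest chi-square per gene 43.2).

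Symbols came from GENCODE (GRCm38), which held 45143 of 45706 identifiers. Genes averaging 1 or more counts per library were tested in R 4.3.3 with edgeR 4.0.16 (TMM, quasi-likelihood, genotype alone, Benjamini-Hochberg, threshold 0.05). DESeq2 1.42.0 was the alternative. Single genes and 10 log2 ratios (prior count 0.5) were tested by two-sided exact permutation over all arrangements of 5 against 5, whose smallest p is 0.00794. Standard errors and SDs refer to uteri, and p-values weigh the genotype difference against the spread between these uteri. For edgeR the SE was the absolute log2 fold change divided by the square root of the F statistic of the test. Fits and permutation were tested on simulated data.

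All 33 members, and the members and lists in general, were chosen with earlier results of these data known. Members were shown with the value in every uterus where edgeR or DESeq2 called them and for *Adgre1*, *Cd68*, *Chil3*, *Retnlg*, *Flt3*, *Spi1*, *Tyrobp*, *Clec9a*, *Zbtb46* and *Cd209a*, and others where described in detail. Of 20 lists in all, 5 hold the members, 4 other genes of their lineages and 11 other cells. From the lists of other lineage genes at most 4 were named per list, by smallest p. *Cd24a*, also called, was named in addition. *S100a8*, *S100a9*, *Prtn3*, *Ccr3*, *Pdpn* and *Kit* were named after their values were seen. Alternatives covered normalization, test, filter, replicate block and the omission of each uterus. Promoters were RefSeq windows of 250 bases before the start (GRCm38.p6), and 24 of 25 member windows continued into a transcript of the gene.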

Additional observations from a re-analysis of the deposited data

Results flagged for a closer look

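In each genotype, the highest and the lowest of the 5 uteri were compared with the others on the log2 CPM scale by Dixon's criterion (gap to the nearest uterus over the whole range above 0.71). Of 63 groups, 9 held a uterus far from the others, where chance gives about 1 in 20 for a single group. The groups are genes of the same 10 uteri and are not independent, so their count cannot be weighed against that rate. Of the 9, 4 came from Control 1 and 5 from knockout 5.

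Control 1 was far below the other Control uteri for the macrophage genes *Mrc1* (23.7 CPM, gap of 0.80 of the range), *C1qb* (24.6 CPM, 0.72), *C1qc* (22.2 CPM, 0.73) and *Folr2* (1.34 CPM, 0.89). Knockout 5 was far above the other knockouts for the engulfment receptor gene *Mertk* (39.5 CPM, 0.78) and the granule gene *Camp* (1.29 CPM, 1.00). It was far below them for *Mpo* (0.231 CPM, 0.71), *Cebpe* (0.289 CPM, 0.94) and *Cd209a* (3.34 CPM, 0.79). No cause of these values was tested.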

How the results depend on the processing

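The 32 members tested were refitted under 14 to 17 alternatives each, since *Chil3*, *Camp* and *Ngp* did not pass the filter in all of them. Of 539 values, 509 kept their direction and their side of the threshold, 29 of 32 members kept their sign throughout, and *Fn1* and *Zbtb46* were called lower in every alternative. *Cd163* changed sign to -0.27 with the replicate block and ranged from -0.77 to 0.42 with single uteri left out, *Plac8* ranged from -0.14 to 0.37 (-0.23 without both Control 1 and knockout 5), and *Retnlg* reached -0.10 without both.

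DESeq2 called 4 members higher, against 9.88% of all genes. With filterByExpr 0 were called higher, since *Chil3* did not pass that filter, and the monocyte median was then -0.07. With single uteri left out, 0 to 4 members were called higher. Without knockout 5 it was 1 member, against 4.93% of all genes. Without Control 1 it was 0, against 947 of 25151 genes. The medians over these omissions ranged from -0.14 to 0.37 for monocyte, 0.53 to 0.99 for shared, 0.40 to 1.56 for neutrophil and 0.39 to 0.66 for dendritic genes. The neutrophil median was 0.77 with no filter, 0.43 with filterByExpr and 1.29 with the replicate block. Without both Control 1 and knockout 5, chosen after seeing the data, 0 members were called higher (4.17% of all genes) and 5 lower (4.10%). The medians were then -0.23 (monocyte), 0.43 (shared), 0.15 (neutrophil) and 0.42 (dendritic). The causes were not tested beyond these omissions.

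Among the ratios, which never passed the test, *Adgre1*/*Flt3* (-0.27 to 0.23), *Adgre1*/*Ptprc* (-0.21 to 0.01) and *Flt3*/*Ptprc* (-0.40 to 0.15) changed sign when a uterus was left out. Without both uteri *Adgre1*/*Flt3* was -0.43, *Retnlg*/*Flt3* -0.32, *Retnlg*/*Ptprc* -0.14 and *Flt3*/*Ptprc* 0.18.

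The labels number uteri 1 to 5 in both genotypes and do not say whether same-numbered uteri share more than the number. Correlations of their deviations were -0.053 to 0.128, which cannot decide whether they shared a litter or batch. With the replicate block 3 members were called higher (*Tyrobp*, *Cd209a* and *Cd86*) and 2 lower, against 845 and 859 of the 25146 genes tested. The correlation was highest with the own number for uteri 2 and 5 of 5.

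Depth limits *Camp*, *Ngp*, *Elane* and *Chil3*, for which a few counts decide the Control level. The same holds for *Ccl17*, *Mmp8* and *Ly6g*, with at most 10, 6 and 14 counts in a Control uterus.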
